A study of Mus musculus with 13 samples.

Results

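The genes described here are 10 genes of germline small-RNA pathways, taken by name: Ddx4, Piwil1, Piwil2, Piwil4, Mael, Tdrd1, Tdrd9, Mov10l1, Dicer1 and Ago2. They are 10 of the 49585 genes with a transcript in the deposited tables, and all 10 had reads in all 13 libraries. RNA was sequenced from cells labelled oocytes, taken from cultured ovaries of CD-1 mice at postnatal day 5. Ovaries received 0.5 Gy or 0.2 Gy of gamma radiation from a cesium source and were dissociated at 5 times up to 6 h. The study's results place the 0 h samples before irradiation, while its methods list 0 h among the times after it. The wording of the results is used below for 0 h. Per the methods 4 ovaries were used for each time point. The 0.5 Gy course had 8 libraries, a pair for 0 h, 1 h and 4 h and a single library for 2.5 h and for 6 h. The first of each pair carries the label first generation, and the other 0.5 Gy libraries the label second generation. The 0.2 Gy course had 5 libraries, 1 per time point, all of the third generation, so dose and generation cannot be told apart. The labels do not say what a generation is, whether libraries came from separate animals, or that any library stayed unirradiated for the whole course, and p-values measure only the spread between these libraries. Libraries held 15709549 to 30430104 estimated reads, the fewest in 0.5 Gy, 0 h replicate 2.

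In germ cells, PIWI proteins are loaded with piRNAs, small RNAs that lead them to transposon transcripts, which they cut or whose genes they help to methylate. Precursors are unwound and trimmed with the help of RNA helicases, and much of the work takes place in germ granules built with Tudor domain proteins. In the mouse, loss of many of these genes stops spermatogenesis, while oocytes also make endogenous siRNAs with Dicer1 and load them on Ago2. The study asked how the transcriptome of the ovarian reserve changes over time once radiation has activated TAp63alpha, the p53 family member of oocytes. The comparisons below ask whether transcripts of the small-RNA genes were among those that changed.

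None of the 10 genes was called in any of 10 comparisons across time, dose or generation. To be called, a gene needed a Benjamini-Hochberg adjusted p below 0.05 over all genes tested in edgeR's quasi-likelihood test, and, except for slopes over time, a log2 change past 1. Known damage response genes were called in only some of these comparisons. Late (2.5 to 6 h) against early (0 and 1 h) at 0.5 Gy, the p53 family targets Cdkn1a, Mdm2, Ccng1 and Eda2r rose by log2 changes of 3.32, 2.63, 1.95 and 3.21, each with an edgeR adjusted p of at most 0.00471. Of these 4 genes, 3 were also called in the slope over time. In the other 8 comparisons 0 of the 4 were called, although their median log2 change was 2.68, 3.27 and 3.67 at 2.5, 4 and 6 h against 0 h and 1.67 late against early at 0.2 Gy, with all 4 at an unadjusted p below 0.05 in each. The lack of a call in those comparisons therefore does not by itself exclude changes of such amounts. The 95% interval of the log2 change sets a bound, and for some genes it stayed within the smaller amount of 1 in either direction. At 2.5, 4 and 6 h against 0 h these were 3, 4 and 3 of the 10 genes. Late against early at 0.2 Gy they were 5 of the 10. Intervals that reached the damage gene medians, in either direction, were fewer. At 2.5 h only that of Piwil1 did, and at 4 and 6 h no interval did. Late against early at 0.2 Gy those of Piwil1, Piwil4 and Mov10l1 did. All 11 oocyte markers were present, with summed levels of 1225 to 1815 TPM (each transcript's reads per length, as a share of the library). Markers of other ovarian cells were present too. Granulosa markers summed to 529 to 1014 TPM, stroma markers to 234 to 395 TPM, red blood cell markers to 1356 to 8218 TPM and endothelial markers to 4.78 to 10.4 TPM. Leukocyte markers summed to 263 TPM in 0.5 Gy, 0 h replicate 2 and to 3.67 to 12.4 TPM in the other 12, and none of the 10 genes was called without that library either. In such mixed samples, fewer cells of a type and less RNA per cell cannot be told apart.

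Levels can be compared between genes only per length. By TPM summed over a gene's annotated transcripts, the median order over the 13 libraries was Mael at 54.8 TPM, Mov10l1 at 48.3, Ddx4 at 10.9, Tdrd1 at 8.42, Dicer1 at 7.40, Piwil2 at 6.47, Tdrd9 at 4.25, Ago2 at 2.67, Piwil4 at 0.427 and Piwil1 at 0.202. Ranges did not overlap between Mov10l1 and Ddx4 or between Ago2 and Piwil4. The other neighbours had overlapping ranges, and Mael was above Mov10l1 in only 7 of 13 libraries. Ddx4 was above Tdrd1 in 13 of 13 libraries, Tdrd1 above Dicer1 in 10, Dicer1 above Piwil2 in 8, Piwil2 above Tdrd9 in 9, Tdrd9 above Ago2 in 9 and Piwil4 above Piwil1 in 11. Divided instead by the length of the longest annotated transcript, the reads put Mov10l1 in place 4, behind Mael, Ddx4 and Tdrd1, and put Piwil2 in place 5, ahead of Dicer1 in place 6.

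**Figure D1:**
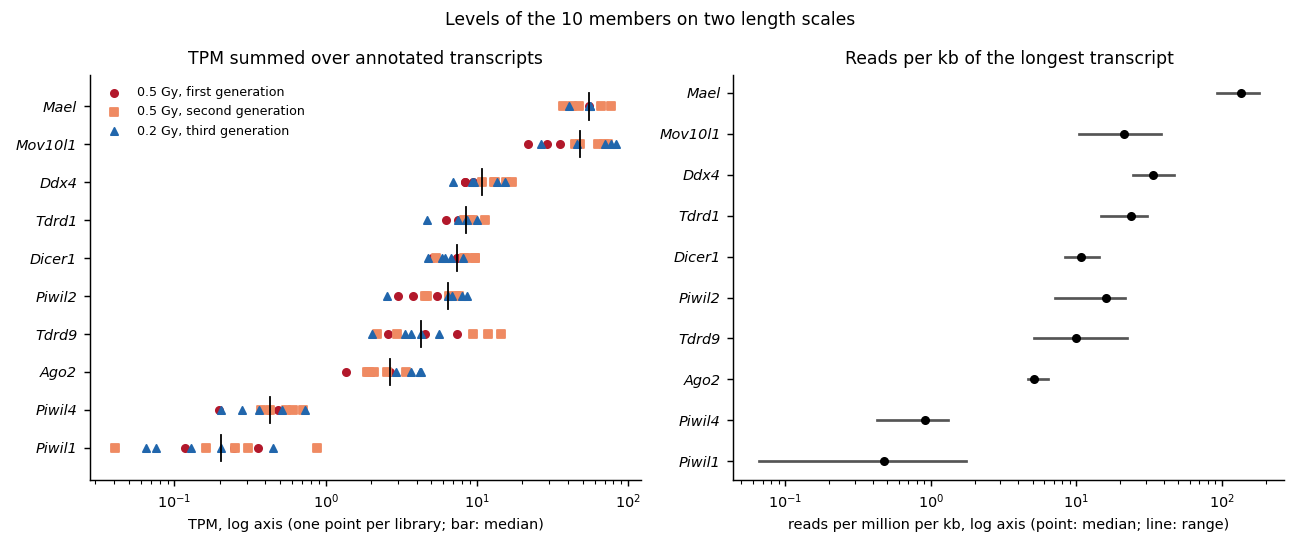
Levels of the 10 genes on 2 length scales, both on log axes. Left, TPM with 1 point per library and a bar at the median over 13 libraries. Right, CPM per kb of the longest annotated transcript, with the median and the range. Mov10l1 stands near Mael on the left, with a median of 48.3 TPM, and behind Ddx4 and Tdrd1 on the right.

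The place of Mov10l1, an RNA helicase needed to make primary piRNAs, rested on a short annotated transcript. Mov10l1-204 is a processed transcript of 265 bases with 4 exons, and all 265 bases lie within coding exons of the full-length Mov10l1-201. It received 39.2 to 168 estimated reads per library, 2.92% to 4.80% of the gene's reads. Its effective length in the deposited tables was 27.0 to 27.6 bases, and it therefore took 65.0% to 79.6% of the gene's TPM. Mov10l1-201 took 61.0% to 79.6% of the reads and 9.36% to 12.8% of the TPM, with a median of 5.58 TPM. Of the 236 words of 30 bases in Mov10l1-204, 26 are in no other Mov10l1 transcript. The transcript is shown in full from GENCODE M21 (chr15:89020421-89023621, GRCm38, plus strand, exons joined), since it holds most of the gene's TPM, and capitals mark 30 bases centred on the junction of its exons 2 and 3, which no other Mov10l1 transcript holds.
Mov10l1-204: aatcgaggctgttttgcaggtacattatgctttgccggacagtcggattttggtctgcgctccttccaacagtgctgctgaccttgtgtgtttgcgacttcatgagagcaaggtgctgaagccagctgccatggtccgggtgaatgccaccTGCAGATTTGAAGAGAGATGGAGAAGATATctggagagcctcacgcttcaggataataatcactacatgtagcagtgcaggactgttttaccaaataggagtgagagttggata

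**Figure D2:**
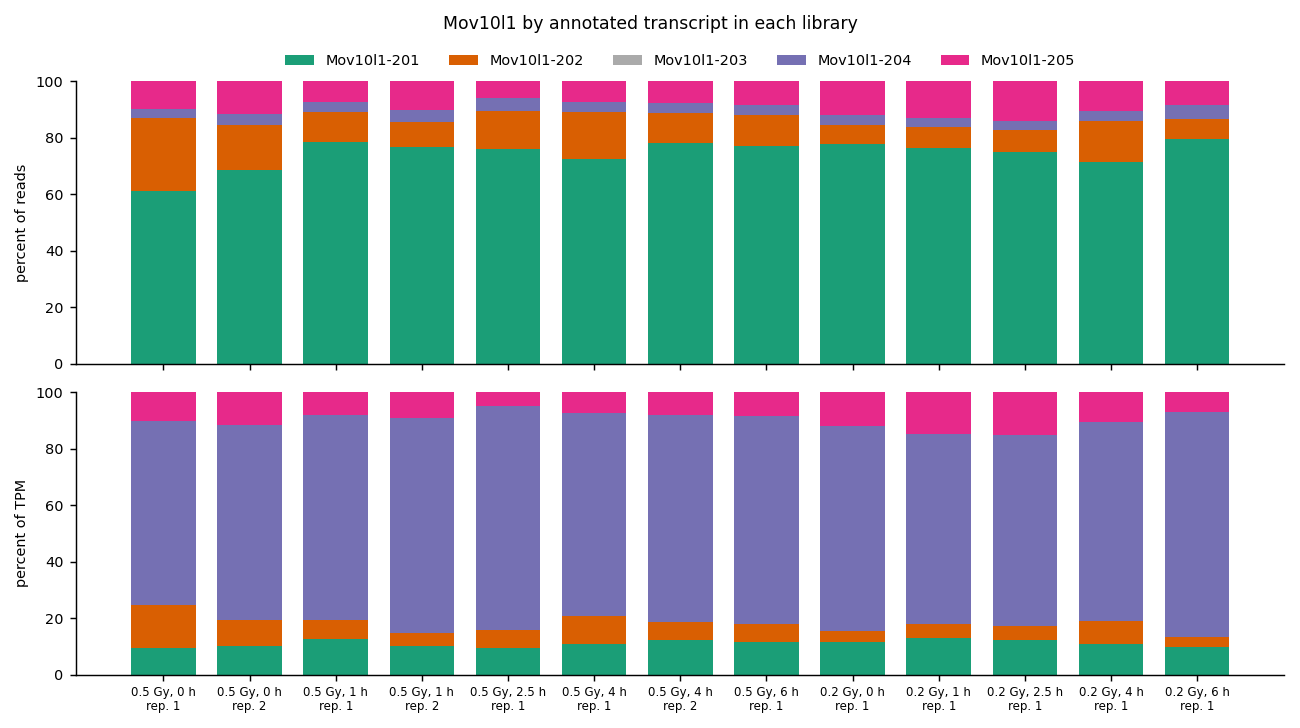
Share of the reads (top) and of the TPM (bottom) of Mov10l1 that each annotated transcript received in each of the 13 libraries, in percent. Mov10l1-201 holds 61.0% to 79.6% of the reads, and the 265-base Mov10l1-204 holds 65.0% to 79.6% of the TPM.

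Mael-201 took at least 97.1% of the reads of Mael in all libraries. Dicer1-203, a coding model of 1460 bases, took 8.01% to 19.7% of the reads of Dicer1 but 35.2% to 59.4% of its TPM, while the full-length Dicer1-201 took 40.8% to 68.0% of the reads. Piwil4-202, a processed transcript of 2111 bases, took 30.6% to 94.8% of the reads of Piwil4 with a median of 79.4%, and the coding model Piwil4-201 had at most 15.8 reads in any library. Tdrd1-203 took 21.2% to 45.2% of the reads of Tdrd1 in the 5 libraries of 0.2 Gy and 3.61% to 16.8% in the 8 of 0.5 Gy, so these shares did not overlap. Ddx4-202 took 40.3% to 56.5% of the reads of Ddx4 at 0.2 Gy and 27.8% to 41.3% at 0.5 Gy. These shares were noticed after their values were seen and were not tested, and dose and generation cannot be told apart in them.

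Windows before the start sites of most of these genes held a shared motif. RefSeq start sites on GRCm38.p6 were listed for 8 of the 10 genes, and the 250 bases before the start were searched for CACGTG, the palindromic E-box, which reads the same on both strands. The motif was chosen after the windows had been read, so its share among these genes is a description and not evidence of enrichment. Of these 8 genes, 6 held it (Piwil1, Ddx4, Mov10l1, Tdrd9, Tdrd1 and Mael), or 75%, against 6.86% of the 27025 genes with a window. Windows of Dicer1 and Piwil4 held none. Of the further piRNA pathway genes 3 of 15 held it (20.0%), of the miRNA and siRNA pathway genes 2 of 18 (11.1%), and of the genes that repress retroelements by other means 2 of 23 (8.70%). A match describes the letters and is not a bound site. Windows of the genes with the highest and the lowest level and of Ddx4 are shown, with the E-box in capitals. They lie at chr1:166238745-166238994 (Mael, minus strand), chr5:128735996-128736245 (Piwil1, plus strand) and chr13:112652311-112652560 (Ddx4, minus strand). The RefSeq starts differ from the GENCODE M21 gene models used for the counts. By those models the Piwil1 window lies inside its gene (chr5:128702524-128755474) and the Ddx4 window partly inside its own (chr13:112598333-112652475). Mael at 54.8 TPM holds 1 E-box and Piwil1 at 0.202 TPM holds 2.
Mael: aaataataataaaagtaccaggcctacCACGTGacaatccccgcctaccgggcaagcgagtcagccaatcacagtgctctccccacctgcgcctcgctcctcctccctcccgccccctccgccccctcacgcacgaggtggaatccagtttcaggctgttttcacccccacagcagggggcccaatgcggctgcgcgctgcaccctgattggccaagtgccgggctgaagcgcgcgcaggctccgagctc
Piwil1: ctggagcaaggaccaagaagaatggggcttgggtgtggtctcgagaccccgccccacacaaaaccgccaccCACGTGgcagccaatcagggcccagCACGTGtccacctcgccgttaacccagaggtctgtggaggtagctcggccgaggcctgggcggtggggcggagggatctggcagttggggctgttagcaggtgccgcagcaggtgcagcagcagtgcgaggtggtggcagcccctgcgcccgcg
Ddx4: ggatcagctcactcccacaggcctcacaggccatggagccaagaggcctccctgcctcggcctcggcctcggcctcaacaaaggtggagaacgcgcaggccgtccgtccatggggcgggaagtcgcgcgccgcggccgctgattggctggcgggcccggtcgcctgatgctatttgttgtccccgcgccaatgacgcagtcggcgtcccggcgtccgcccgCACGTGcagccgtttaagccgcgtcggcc

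In the values that follow, levels within a gene are CPM (estimated reads scaled to library size, with TMM factors), and changes are fitted log2 changes with their standard error. Late against early at 0.5 Gy, 29 of 22588 genes were called (0.128%), all higher, and 0 of the 10 small-RNA genes. Their median log2 change was -0.10, beside -0.02 over all genes tested, with 4 above 0 and 6 below, and 0 had an unadjusted p below 0.05. For 8 of the 10, the 95% interval of the change lay within -1 and 1. The exceptions were Piwil1 and Tdrd9. At 0.2 Gy, where 4 and 6 h were compared with 0 and 1 h, 13 of 28162 genes were called (0.0462%), again 0 of the 10, with a median of -0.02 beside -0.03 over all genes. Here the interval stayed within -1 and 1 for 5 of the 10. Fits at both doses pool time points on each side, which are not replicates of a condition. Their intervals do not bound the change at a single time. With the time points of 0.5 Gy kept apart, 3, 4 and 3 of the 10 intervals lay within -1 and 1 at 2.5, 4 and 6 h against 0 h. The 2.5 and 6 h libraries of 0.5 Gy are of the second generation only. Time and generation are therefore partly confounded in the 0.5 Gy comparisons.

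**Figure D3:**
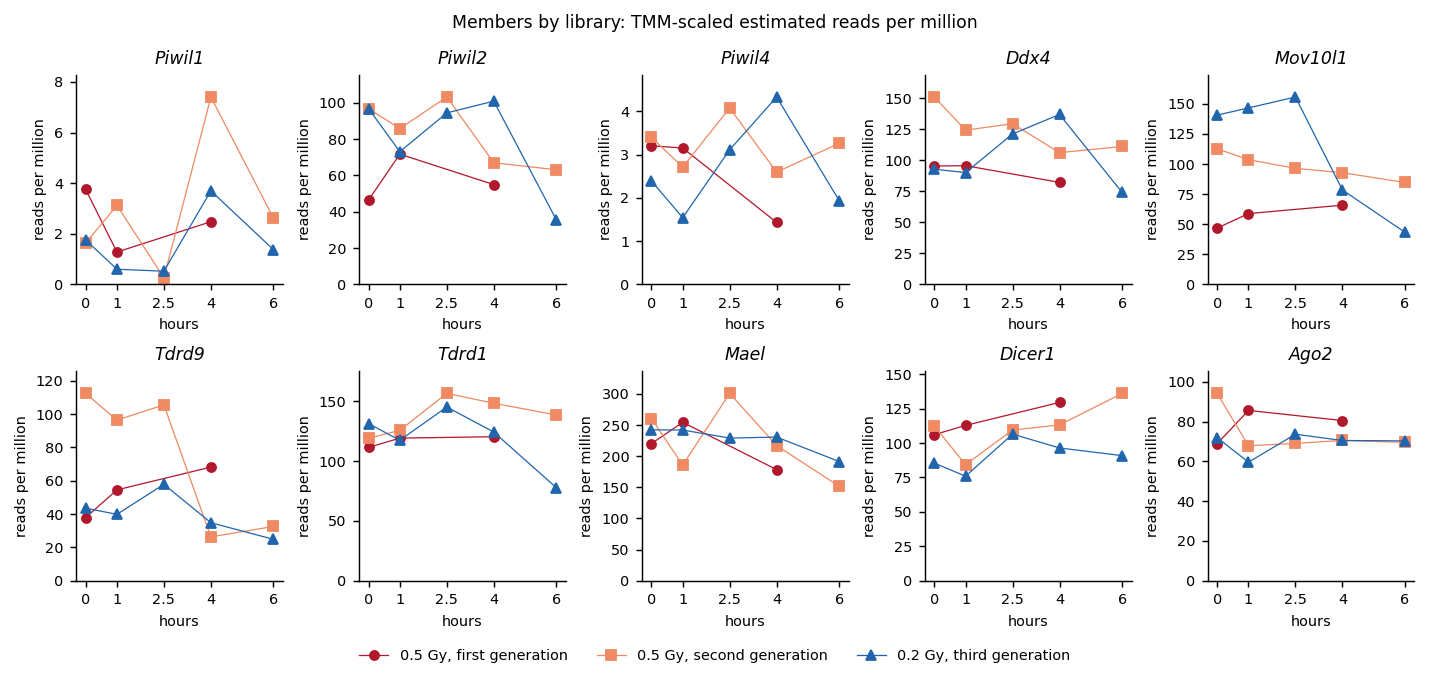
TMM-scaled CPM of the 10 genes in each of the 13 libraries against hours, with 1 marker per library and lines joining libraries of 1 generation and dose. Axes start at 0 and differ between panels. Mov10l1 at 0.2 Gy lies between 141 and 156 up to 2.5 h and at 78.4 and 43.3 after it, while Ago2 stays between 59.7 and 94.3 in all libraries.

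Among the PIWI proteins, Piwil2 (ENSMUSG00000033644, chr14:70372477-70429383, minus strand), the partner of piRNAs in fetal and newborn germ cells, was the most abundant. In the 0.5 Gy course it had 46.4 and 96.8 CPM before irradiation, 71.7 and 85.8 after 1 h, 103 after 2.5 h, 55.0 and 67.0 after 4 h and 63.1 after 6 h. At 0.2 Gy it had 96.8, 73.1, 94.5, 101 and 35.5 CPM from 0 to 6 h. Early and late libraries overlapped at both doses, with log2 changes of -0.07 ± 0.25 at 0.5 Gy and -0.29 ± 0.41 at 0.2 Gy (SE). Piwil4 (ENSMUSG00000036912, chr9:14696230-14740733, minus strand), the nuclear PIWI protein that directs DNA methylation in male germ cells, had 1.43 to 4.33 CPM from 37 to 116 reads. Of its exonic bases 137 (2.54%) overlap the antisense gene Gm10706, which also holds 110 of its 5432 words of 30 bases, and without strand the reads of both cannot be told apart there. Piwil1 (ENSMUSG00000029423, chr5:128702524-128755474, plus strand), which acts in meiotic and later male germ cells, had 7 to 197 reads per library. Its highest level was 7.40 CPM in 0.5 Gy, 4 h replicate 2, and its lowest 0.259 CPM at 0.5 Gy, 2.5 h.

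Piwil1 gave the largest fitted difference of the 10 genes at any time point. At 2.5 h against 0 h, 0.5 Gy, 0.259 CPM from 7 reads stood against 3.75 and 1.63 CPM at 0 h, a log2 change of -3.34 ± 1.15 with an unadjusted p of 0.0176 and an edgeR adjusted p of 0.875. The adjusted p was 0.168 to 0.970 over the alternatives tried. The 2.5 h value came from 1 library, and the 4 h libraries, at 2.47 and 7.40 CPM, overlapped with those at 0 h. DESeq2 with a prior that shrinks fold changes gave -0.71.

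Of the 3 RNA helicases, Mov10l1 and Tdrd9 varied more between libraries than Ddx4, with coefficients of variation of 39.2% and 53.6% against 21.1%. Ddx4 (ENSMUSG00000021758, chr13:112598333-112652475, minus strand), the mouse vasa protein of germ granules, had 95.5 and 151 CPM before irradiation, 95.7 and 124 after 1 h, 130 after 2.5 h, 82.3 and 106 after 4 h and 111 after 6 h in the 0.5 Gy course. In the 0.2 Gy course it had 92.9, 90.2, 121, 137 and 74.1 CPM from 0 to 6 h. The late libraries lay within or just below the range of the early ones at 0.5 Gy, and on both sides of it at 0.2 Gy. The log2 changes were -0.13 ± 0.19 at 0.5 Gy, with a 95% interval of -0.56 to 0.29, and 0.24 ± 0.30 at 0.2 Gy.

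Mov10l1 (ENSMUSG00000015365, chr15:88982909-89055152, plus strand) had 46.7 and 113 CPM before irradiation, 58.8 and 104 after 1 h, 96.4 after 2.5 h, 65.8 and 92.8 after 4 h and 84.7 after 6 h in the 0.5 Gy course, and early and late libraries overlapped. Within the second generation, without a test, it fell at each time from 113 CPM at 0 h to 84.7 at 6 h. Within the first it rose from 46.7 CPM at 0 h to 65.8 at 4 h. In the 0.2 Gy course it had 141, 147, 156, 78.4 and 43.3 CPM from 0 to 6 h, so that both libraries from 4 h on lay below all 3 before. The log2 change was 0.07 ± 0.26 at 0.5 Gy. At 0.2 Gy it was -1.21 ± 0.39, with an unadjusted p of 0.00894 and an edgeR adjusted p of 0.619, and it was not called. Without the 0.2 Gy, 6 h library it was -0.83, without the 4 h library -1.71. The adjusted p was 0.249 to 1 over all alternatives. The full-length Mov10l1-201 had 3609, 3551, 3153, 1502 and 854 estimated reads from 0 to 6 h. Other values moved with these libraries. The 0 and 1 h libraries of 0.2 Gy had reads for 42767 and 42984 genes, the other 11 for 36343 to 39439. Granulosa markers had a median log2 change of 0.60 late against early at 0.2 Gy (9 of 9 tested, 0 called), with summed levels of 1014 and 642 TPM at 0 and 1 h and 770 and 1013 TPM at 4 and 6 h. Stroma markers had a median log2 change of 0.55 (7 of 7 tested, 0 called), with sums of 368 and 236 TPM early and 362 and 338 TPM late. Oocyte markers had a median log2 change of -0.04 (11 of 11 tested, 0 called), with sums of 1433 and 1225 TPM early and 1815 and 1344 TPM late. Red blood cell markers had a median of 0.73 (5 of 5 tested, 0 called), with sums of 3310 and 3396 TPM early and 6039 and 3708 TPM late. Both late sums of the red blood cell markers lay above both early ones, while the sums of the other 3 lists overlapped. The 2.5 h library, which is not in this comparison, had 1356 TPM of red blood cell markers. Their part in the result was not tested.

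Tdrd9 (ENSMUSG00000054003, chr12:111971559-112068854, plus strand), a helicase with a Tudor domain that acts with Piwil4, had the widest spread of the abundant genes, 4.52-fold between the highest and the lowest library. In the 0.5 Gy course it had 37.9 and 112 CPM before irradiation, 54.5 and 96.4 after 1 h, 106 after 2.5 h, 68.2 and 26.3 after 4 h and 32.6 after 6 h. In the 0.2 Gy course it had 43.5, 39.8, 57.9, 34.8 and 24.9 CPM in time order. The 0 h replicates alone covered most of this span. Late against early the log2 changes were -0.38 ± 0.44 at 0.5 Gy and -0.45 ± 0.50 at 0.2 Gy, and neither was called.

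Tdrd1 (ENSMUSG00000025081, chr19:56826209-56870012, plus strand), the Tudor domain scaffold that binds Piwil2, had 111 and 119 CPM before irradiation, 119 and 126 after 1 h, 157 after 2.5 h, 120 and 148 after 4 h and 139 after 6 h in the 0.5 Gy course. In the 0.2 Gy course it had 131, 117, 145, 124 and 77.7 CPM in time order. The log2 change at 0.5 Gy was 0.23 ± 0.14, with a 95% interval of -0.07 to 0.53 and an edgeR adjusted p of 0.649, the lowest among the 10 genes in that comparison. Mael (ENSMUSG00000040629, chr1:166201201-166238747, minus strand), a germ granule protein needed for transposon silencing in the male, had 220 and 261 CPM before irradiation, 255 and 186 after 1 h, 301 after 2.5 h, 178 and 217 after 4 h and 152 after 6 h in the 0.5 Gy course. In the 0.2 Gy course it had 242, 242, 229, 231 and 191 CPM in time order. The 6 h library was the lowest at each dose, and the log2 changes late against early were -0.13 ± 0.21 and -0.17 ± 0.22.

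Dicer1 and Ago2 belong to the siRNA and miRNA branch. Dicer1 (ENSMUSG00000041415, chr12:104687742-104751952, minus strand), the nuclease that cuts double-stranded precursors, had 106 and 112 CPM before irradiation, 113 and 84.3 after 1 h, 109 after 2.5 h, 129 and 113 after 4 h and 136 after 6 h in the 0.5 Gy course, and 85.4, 75.9, 106, 96.4 and 90.9 CPM from 0 to 6 h in the 0.2 Gy course. At 0.2 Gy all 3 libraries from 2.5 h on lay above both earlier ones. The log2 changes were 0.22 ± 0.15 at 0.5 Gy and 0.25 ± 0.20 at 0.2 Gy. Ago2 (ENSMUSG00000036698, chr15:73095844-73184935, minus strand), the Argonaute that cuts its targets, varied least in CPM, from 59.7 to 94.3 with a coefficient of variation of 12.0% over 13 libraries. By TPM it ranged from 1.36 to 4.26. Ago2-201 took 94.7% to 99.9% of its reads but 29.5% to 96.5% of its TPM. Late against early, the log2 changes of Ago2 were -0.14 ± 0.16 and 0.13 ± 0.21, with 95% intervals of -0.48 to 0.20 and -0.33 to 0.59. At 0 and 1 h, 0.2 against 0.5 Gy, its difference was -0.32, and it was -0.36 to 0.77 over alternatives that kept all libraries. Of its 30-base words 7.60% occur in transcripts of other genes, against at most 2.45% for the other 9, and 219 of its exonic bases (1.56%) overlap exons of Chrac1 on the other strand, from which this library type cannot separate them.

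**Figure D4:**
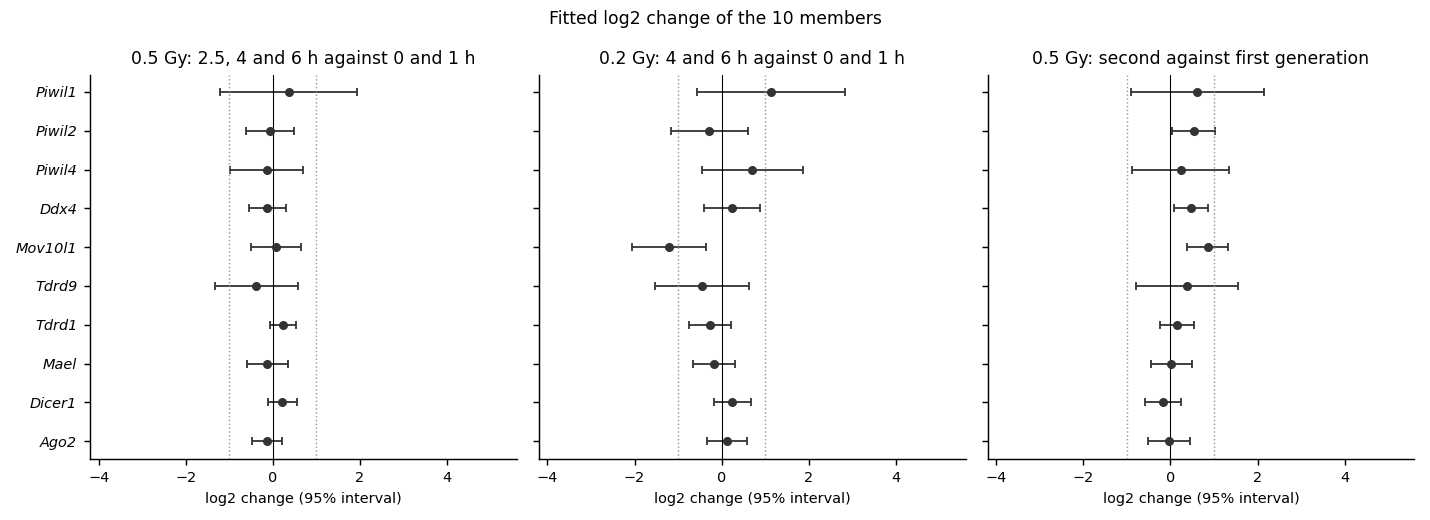
Fitted log2 change of each of the 10 genes with its 95% interval for 3 comparisons, late against early at 0.5 Gy and at 0.2 Gy and the second against the first generation. Dotted lines mark log2 changes of -1 and 1. At 0.5 Gy the intervals of 8 of 10 genes lie within them, at 0.2 Gy those of 5 of 10, and Mov10l1 at 0.2 Gy and in the second against the first generation has an interval that leaves out 0, as do Ddx4 and Piwil2 in the latter.

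Single time points and slopes gave no calls among the 10 genes either. Each later time of the 0.5 Gy course was set against 0 h over 28468 genes, and edgeR called 0 of them (0%) each time, while 1133, 1590, 1658 and 1691 had an unadjusted p below 0.05. DESeq2 with its default settings called 32, 108, 138 and 142 genes, and 0 of the 10. The medians of the 10 genes were -0.08, 0.32, -0.14 and -0.08, beside 0.01, -0.04, 0.00 and 0.00 over all genes. In the same order, the lowest edgeR adjusted p of the 10 was 1, 0.875, 0.890 and 0.843. In a slope over hours fitted to all 13 libraries with dose as a term, 20 of 24450 genes were called (0.0818%) and 0 of the 10. Mael had a slope of -0.07 ± 0.03 per hour (unadjusted p 0.0359, edgeR adjusted p 0.641) and Tdrd9 one of -0.17 ± 0.07 (0.0386 and 0.650). Leaving out each library in turn moved the slope of Mael between -0.08 and -0.05 and that of Tdrd9 between -0.21 and -0.13, and the slope nearest 0 of Mael was the one without 0.5 Gy, 6 h. Dicer1 had a slope of 0.05 ± 0.03 (unadjusted p 0.0755, edgeR adjusted p 0.741).

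The test of the difference between doses, late against early without 2.5 h, called 9 of 28162 genes (0.032%) and 0 of the 10. The largest difference among them was that of Mov10l1, -1.21 ± 0.49 (0.2 Gy minus 0.5 Gy, unadjusted p 0.0277, edgeR adjusted p 0.571). At 0 and 1 h, 0.2 against 0.5 Gy, 34 genes were called (0.121%) and again 0 of the 10. Of all genes tested in this comparison, 14.9% had an unadjusted edgeR p below 0.05. There the difference was 0.79 ± 0.33 for Mov10l1, with the higher level at 0.2 Gy (unadjusted p 0.0312, edgeR adjusted p 0.293), and -0.42 ± 0.17 for Dicer1 (0.0340 and 0.300). Mov10l1 had 141 and 147 CPM there against 46.7 to 113 in the 4 libraries of 0.5 Gy, and the groups did not overlap. The 3 comparisons share libraries and are not independent of each other. Other scaling moved the median of all genes in them, by -0.16 (library size alone) and -0.27 (scaled to oocyte markers) late against early at 0.2 Gy, by -0.22 and -0.32 in the difference, and by 0.23 and 0.29 at 0 and 1 h. Relative to the median of all genes, Mov10l1 at 0.2 Gy, late against early, was then -1.18 and -1.21 beside -1.18 as first scaled. Scaling moves all genes by nearly the same amount, so these values had to stay close and test nothing.

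Within 0.5 Gy, 0 of the 10 genes were called between generations. With the time point as a block, second against first generation at 0, 1 and 4 h called 21 of 22715 genes (0.0924%). An unadjusted edgeR p below 0.05 was seen for 10.2% of the genes tested. The median of the 10 was 0.31, beside 0.00 over all genes, with 8 above 0. Mov10l1 was higher in the second generation at each time, 113 against 46.7 CPM at 0 h, 104 against 58.8 at 1 h and 92.8 against 65.8 at 4 h, with a fitted difference of 0.86 ± 0.20 (unadjusted p 0.00303, edgeR adjusted p 0.292). DESeq2 gave the same change an adjusted p of 0.0204 and edgeR without the filter on low counts 0.0157, both short of the log2 minimum of 1. Ddx4 differed by 0.47 ± 0.17 (unadjusted p 0.0258, edgeR adjusted p 0.441) and Piwil2 by 0.53 ± 0.22 (0.0401 and 0.472), and both were also higher in the second generation at 0, 1 and 4 h. Oocyte markers had a median of 0.22 and stroma markers one of -0.21 in this comparison, and the summed oocyte markers were 1447 to 1805 TPM in the 3 libraries of the second generation and 1281 to 1365 TPM in those of the first. Leukocyte markers had the largest median, 0.72, with all 6 above 0 (0.35 to 1.41), and summed to 263, 9.56 and 7.64 TPM in the second generation at 0, 1 and 4 h and to 3.67, 12.4 and 8.78 TPM in the first. Granulosa markers had a median of -0.05, but their sums were higher in the second generation at each time, 651 against 615, 795 against 529 and 901 against 581 TPM. Red blood cell markers had a median of 0.19 and endothelial markers one of 0.09, and 0 genes of these 6 lists were called. Their part in the result was not tested.

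No gene of the wider pathway lists was called either. Of 22 further piRNA pathway genes, 21 were tested late against early at 0.5 Gy and 22 at 0.2 Gy, with 0 called in either direction in any of the 10 comparisons. The medians were 0.07 and -0.13. Gtsf1, a partner of PIWI proteins, had the highest level with a median of 229.7 TPM, followed by the Tudor protein Tdrd5 at 84.3 TPM and the arginine methyltransferase Prmt5 at 30.9 TPM. Gtsf1 and Tdrd5 thus had higher medians than any of the 10 genes. Btbd18, Tdrd6 and Spocd1 were lowest, at 0.175, 0.0631 and 0.0367 TPM. At 0.5 Gy the largest positive change was that of Exd1, 0.70 ± 0.26 (unadjusted p 0.0194, edgeR adjusted p 0.468), and the largest negative one that of Tex15, -0.50 ± 0.32.

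Of 20 genes of the miRNA and siRNA pathway, 20 were tested at both doses and 0 called, with medians of 0.02 at 0.5 Gy and 0.20 at 0.2 Gy, beside -0.02 and -0.03 over all genes. Tsn, a subunit of the C3PO nuclease, was highest at 93.8 TPM, with the uridylyl transferase Tut4 at 36.7 TPM and the Argonaute partner Tnrc6a at 19.2 TPM next. Tnrc6c, Ago4 and Lin28b were lowest, at 1.90, 0.641 and 0.299 TPM. The largest changes at 0.5 Gy were 0.37 ± 0.25 for the exporter Xpo5 and -0.40 ± 0.25 for Ago3. Of 23 genes that repress retroelements by other means, such as histone and DNA methylation, 23 were tested at both doses and 0 called, with medians of 0.07 and 0.19. The remodelling ATPase Hells at 207 TPM, the heterochromatin protein Cbx3 at 124 TPM and Mphosph8, a subunit of the HUSH complex, at 100.4 TPM were highest. The lowest were Morc2a at 3.55 TPM, the DNA exonuclease Trex1 at 2.29 TPM and the HUSH subunit Tasor at 2.02 TPM. Trex1 also had the largest positive change at 0.5 Gy, 0.69 ± 0.32 (unadjusted p 0.0516), and Tasor the largest negative one, -0.52 ± 0.25 (0.0621), neither called. Other genes of this list had a lower p. An unadjusted edgeR p below 0.05 was seen for 2 of the 23 at 0.5 Gy and 4 at 0.2 Gy. Over all genes tested the shares were 9.06% and 7.29%.

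**Figure D5:**
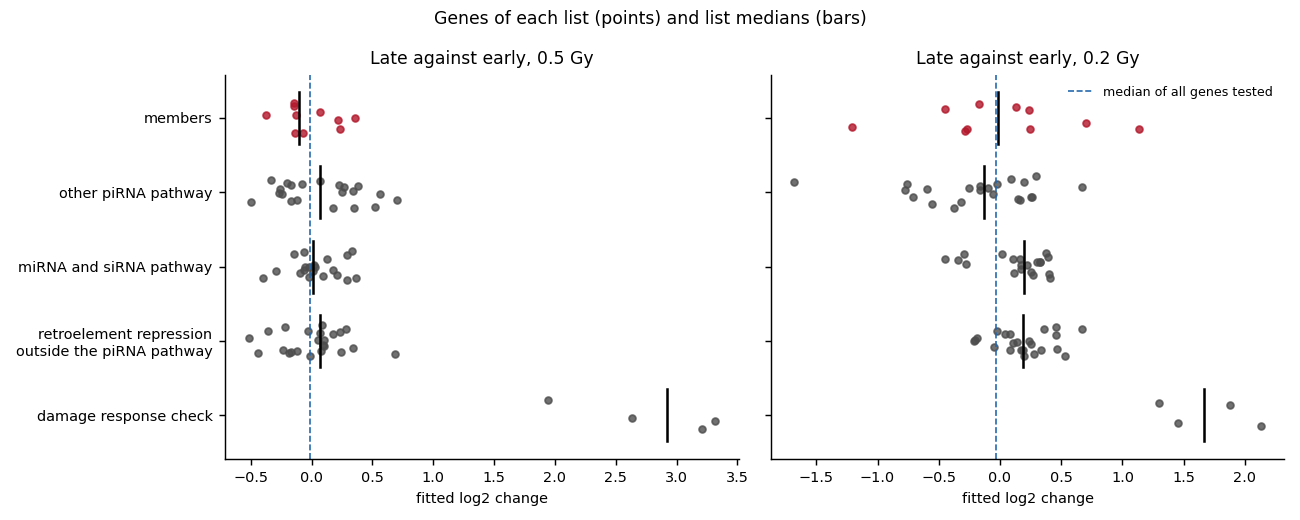
Fitted log2 change late against early at 0.5 Gy (left) and 0.2 Gy (right) for the tested genes of each list, 1 point per gene with a small vertical scatter, a bar at the list's median and a dashed line at the median of all genes tested. The 4 damage response genes lie above 1 at both doses, while medians of the small-RNA lists lie between -0.13 and 0.20.

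The genes whose log2 CPM over the 13 libraries followed Ddx4 most closely, among 17856 protein-coding genes with enough reads, were Mapk6 with a Pearson r of 0.88, Kcnd2 with 0.87 and Mios with 0.87. Spearman's rho was 0.87, 0.90 and 0.86. Among the other 9 genes of the set, r with Ddx4 was highest for Piwil2 (0.77) and Piwil4 (0.77) and lowest for Piwil1 (-0.05). The points share libraries, doses and generations, so these values are a description only.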

How the data were processed

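RNA from 13 samples was prepared with a SMARTER kit and sequenced in 30-base reads, which the labels call paired-end in one place and single-end in another. The authors quantified transcripts of GRCm38 with Salmon and used DESeq2 1.24.0 (per the labels). The deposited tables hold estimated counts and TPM per transcript. Estimated counts were summed per gene with GENCODE M21 and rounded, and 402 transcripts without a gene there, at most 0.495% of reads, were left out. Further series tables with normalised counts and the authors' own fold changes and p-values were not used. edgeR 4.0.16 (TMM, filterByExpr with a minimum count of 10, quasi-likelihood test) was the main test, checked on simulated data. The 0.5 Gy times shared 1 fit, and the 0.2 Gy fits used both doses without 2.5 h. limma 3.58.1 and DESeq2 1.42.0 were alternatives. Depth was 15709549 to 30430104 reads, and a library's value at 7 reads has wide counting error.

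The genes and gene lists were chosen with earlier results of these data known, so no list is independent evidence. All 10 genes are described in full. Of the other lists, the genes named were any called, the 3 highest and 3 lowest by median TPM, and those with the largest change in each direction at 0.5 Gy. Words of 30 bases were compared between GENCODE M21 transcripts.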

Additional observations from a re-analysis of the deposited data

How the results depend on the processing

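Over 177 alternative fits, 0 of the 10 genes were called. Of 1769 fitted changes under alternatives, 142 had the other sign, and 0 of these were among the 10 values of 100 with an unadjusted p below 0.05 at first. The alternatives refit the same libraries, so kept signs are not independent evidence. Over all genes tested, the edgeR share with an unadjusted p below 0.05 was 3.98% to 14.9% by comparison. Of the 1769 values, 2 had an adjusted p below 0.05, both of Mov10l1 between generations (0.0204 by DESeq2 and 0.0157 by edgeR without the filter), with changes below the minimum.

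Counts over all genes did depend on the method, and the cause was not tested. In the order 1, 2.5, 4 and 6 h against 0 h, late against early at 0.5 Gy and then 0.2 Gy, difference between doses, 0.2 against 0.5 Gy at 0 and 1 h, trend and generation, the counts were 0, 0, 0, 0, 29, 13, 9, 34, 20 and 21. DESeq2 gave 32, 108, 138, 142, 203, 135, 114, 409, 188 and 261, and with its beta prior 22, 88, 124 and 144 for the first 4. With no filter they were 30, 56, 80, 78, 58, 32, 22, 71, 32 and 462. limma voom gave 17 for late against early in the 0.5 Gy course (14 by edgeR without 2.5 h), 0 for the difference, 100 at 0 and 1 h and 32 between generations. Scaled to oocyte markers, 5 (4 h), 6 (6 h), 55 (0 and 1 h) and 13 (trend) were called, and by library size alone 2 at 6 h. Length-scaled TPM gave 10 for the trend and 13 between generations. The trend called 31 with ranked times, 17 in 0.5 Gy alone and 0 for a separate 0.2 Gy slope fitted with both doses. Generation called 34 without the time block. Of the genes called at 0 and 1 h, 20 of 34 were higher, 31 of 41 by library size alone and 44 of 55 scaled to oocyte markers. For late against early in the 0.2 Gy course this was 10 of 13, 7 of 11 and 8 of 12, and for the difference 7 of 9, 6 of 9 and 6 of 8.

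With generation as a replicate block, 1 gene was called at 2.5 h, 6 at 4 h, 7 at 6 h, 18 for late against early in the 0.5 Gy course and 10 for the trend, with 0 of the 10 genes in each. Deviations of the second from the first generation correlated at 0.147, 0.0907 and 0.130 between times, with only 2 numbers, so the block was not treated as pairing. Fits without the block can therefore carry a difference between generations, since 2.5 and 6 h at 0.5 Gy have second generation libraries only. These correlations are over all genes and do not show that the 10 genes lack a difference between generations.

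Leaving out each library in turn gave 0 to 4 calls at 1 h, 0 to 7 at 2.5 h, 0 to 10 at 4 h, 0 to 6 at 6 h, 10 to 37 and 1 to 18 late against early at 0.5 and 0.2 Gy, 0 to 13 in the difference, 11 to 48 at 0 and 1 h, 2 to 44 in the trend and 6 to 121 between generations. A library left alone at its time is assumed to vary like the others.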
